A study of Homo sapiens with 10 samples.

Results

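Long intergenic RNAs lie between genes, and antisense RNAs are read from the strand opposite another gene. Both classes were taken here from the GENCODE release 29 gene types lincRNA and antisense in NB4, a human acute promyelocytic leukaemia line with the PML-RARA fusion. The members were chosen by type and level: the transcript values of each gene were summed, and genes with a mean of 1 TPM or more (a transcript level scaled for length and library size) over the 4 NB4 libraries were kept. NEAT1, MALAT1, MIAT, HOTAIRM1, PVT1, GAS5, DLEU2 and the SNHG genes were left out by the rule, which cost no gene of that level. In all, 9 genes met this, 7 lincRNA and 2 antisense, of 21972 genes in the table, and 8 of them are described here and counted as the members. The study treated Kasumi-1 and NB4 leukaemia cells for 48 hours with JOA, a compound known here by its code name, at 1 µM, or with a control whose content is not given in the sources used here. NB4 had 2 control and 2 JOA libraries, made with a stranded mRNA kit from total RNA. The source label of both NB4 treated libraries names I13, but their titles and agent labels give JOA, which is the group used here. The labels do not tell whether the libraries of a group are separate cultures, and every p-value here reflects the spread among these libraries, which may be technical.

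Long noncoding RNAs are transcribed and often spliced like messenger RNAs but are not known to encode proteins. Many are present at low level, and some act on the chromatin or the transcription of genes beside them, which is why the neighbour of each RNA is given here. An RNA that starts close to a coding gene and runs away from it often shares that gene's promoter region. Where the exons of 2 genes lie on top of each other, or where a gene has near copies, short reads cannot always be assigned to 1 of them.

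The NB4 table used here lists few genes of these types. It holds 36 of the 13222 lincRNA and antisense genes of GENCODE (0.272%), against 17429 of 19969 protein coding genes (87.3%). None of the 166 long RNA names in the 11 lists drawn up for this comparison, which cover microRNA hosts, HOX cluster RNAs, myeloid and leukaemia-linked RNAs and others, has a row in it, and NEAT1, MALAT1, GAS5 and TUG1 have 0 transcripts listed. These counts cover the 93.9% of transcripts that matched GENCODE. The unmatched ones, with 2.91 to 3.18% of TPM, have no gene name or type here. The genes described are therefore drawn from what the matched rows carry of the 2 types, and the other long noncoding RNAs of NB4 cells were not analysed here. All 8 passed the filter for testing, 1 TPM or more in at least 2 libraries. The lowest of them, AP002381.2, has a mean of 1.37 TPM, and the highest gene under the threshold, AC083829.2, a mean of 0.614 TPM. Of the 27 genes outside, 4 are listed at 0 in all libraries, 13 in 1 to 3 libraries, and 10 have a value above 0 in every library.

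The sequences that follow are reference sequences, and which bases the reads cover is not known here. The first is the stretch of the most abundant member, AL512625.2, that occurs in no transcript of another gene, counted in windows of 50 bases on both strands of all GENCODE transcripts. It lies at chr9:62837622-62837737 on the minus strand (GRCh38) and is the longest such stretch of that transcript.

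AL512625.2: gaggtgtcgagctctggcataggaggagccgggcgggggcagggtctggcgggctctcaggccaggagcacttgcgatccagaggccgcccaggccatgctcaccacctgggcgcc

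The next is 200 bases of such a stretch in the FAM182B transcript that holds nearly all of that gene's value, at chr20:25867172-25867371 on the minus strand. It was counted also against the gene's other transcripts.

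FAM182B: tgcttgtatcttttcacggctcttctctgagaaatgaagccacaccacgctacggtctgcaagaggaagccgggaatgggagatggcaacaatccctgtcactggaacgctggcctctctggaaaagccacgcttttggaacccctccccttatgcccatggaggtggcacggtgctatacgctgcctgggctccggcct

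The third is the start of the RFPL3S transcript ENST00000461833, at chr22:32363011-32363117 on the minus strand, found in no other transcript of RFPL3S or of another gene. The value listed for that transcript separates 1 JOA library from the other 3, though its split from the gene's other transcripts is uncertain.

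RFPL3S: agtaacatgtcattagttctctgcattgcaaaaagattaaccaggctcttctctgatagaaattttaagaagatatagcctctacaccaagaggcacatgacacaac

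Promoters in the RefSeq table (GRCh38.p14, 250 bases before to 50 after the start) matched 2 of the 8 members by symbol, HCG27 and FAM182B. That of FAM182B starts elsewhere than the transcript that holds its value and is not shown. The promoter of HCG27, the member with the lowest p, lies at chr6:31197510-31197809 on the plus strand, and the promoter of ATG16L2, the coding gene that starts head to head with the member AP002381.2, at chr11:72814161-72814460 on the plus strand. The RefSeq start used for the ATG16L2 promoter lies farther from AP002381.2 than the GENCODE start of that gene, 72814308. Capitals mark matches, on either strand, to the letters TATAAA and GGGCGG.

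HCG27: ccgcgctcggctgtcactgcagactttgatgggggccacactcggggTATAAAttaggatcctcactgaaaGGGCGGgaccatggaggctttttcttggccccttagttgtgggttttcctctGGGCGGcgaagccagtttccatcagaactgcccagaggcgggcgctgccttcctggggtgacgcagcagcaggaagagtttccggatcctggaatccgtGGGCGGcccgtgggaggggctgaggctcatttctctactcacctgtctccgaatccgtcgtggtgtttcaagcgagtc
ATG16L2: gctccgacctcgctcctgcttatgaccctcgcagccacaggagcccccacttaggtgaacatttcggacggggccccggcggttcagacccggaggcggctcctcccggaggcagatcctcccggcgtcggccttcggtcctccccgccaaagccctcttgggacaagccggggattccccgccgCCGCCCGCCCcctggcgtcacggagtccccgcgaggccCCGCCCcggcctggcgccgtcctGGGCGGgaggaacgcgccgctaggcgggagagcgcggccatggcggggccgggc

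The HCG27 promoter holds TATAAA 1 time, 203 bases before the start, and GGGCGG 3 times. The ATG16L2 promoter holds GGGCGG 4 times, and the 2 farthest from the start overlap. TATAAA is found in 11.5% and GGGCGG in 45.0% of the 35116 promoters in the table, on either strand. The letters CCAAT, which 34.6% of promoters hold, were searched too and are in neither window. The same holds for CACGTG, found in 7.26% of promoters. Neither window holds CCGGAAG, found in 10.3%. The last motif searched was TGACGTCA, found in 1.85% and in neither window. These are matches of letters and not sites.

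No member passed the test for a change with JOA against the spread between libraries. With limma on log2(TPM + 1) over 12949 genes, 0 of the 8 passed at a Benjamini-Hochberg adjusted p under 0.05, and their adjusted p ran from 0.485 to 0.982. The same fit called 1 gene in all (0.00772%), the chemokine gene CXCL10, which fell. At an unadjusted p under 0.05 there were again 0 members, against 10.6% of all genes (8.19% higher and 2.42% lower with JOA). On the log2(TPM + 1) scale, which understates the change of low genes, the members lay between -0.20 and 0.50, and all 8 intervals of 95% held 0. The median change was 0.19 for the members and 0.08 for all genes tested, and 7 of 8 members were positive, as were 66.2% of all genes. The groups did not overlap in 4 members, against 43.5% of all genes. Both JOA libraries lay above both controls in 3 members, against 32.5% of all genes, and below both in 1 member, against 11.0%. In bulk RNA, fewer cells of a type and less RNA per cell cannot be told apart.

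**Figure D1:**
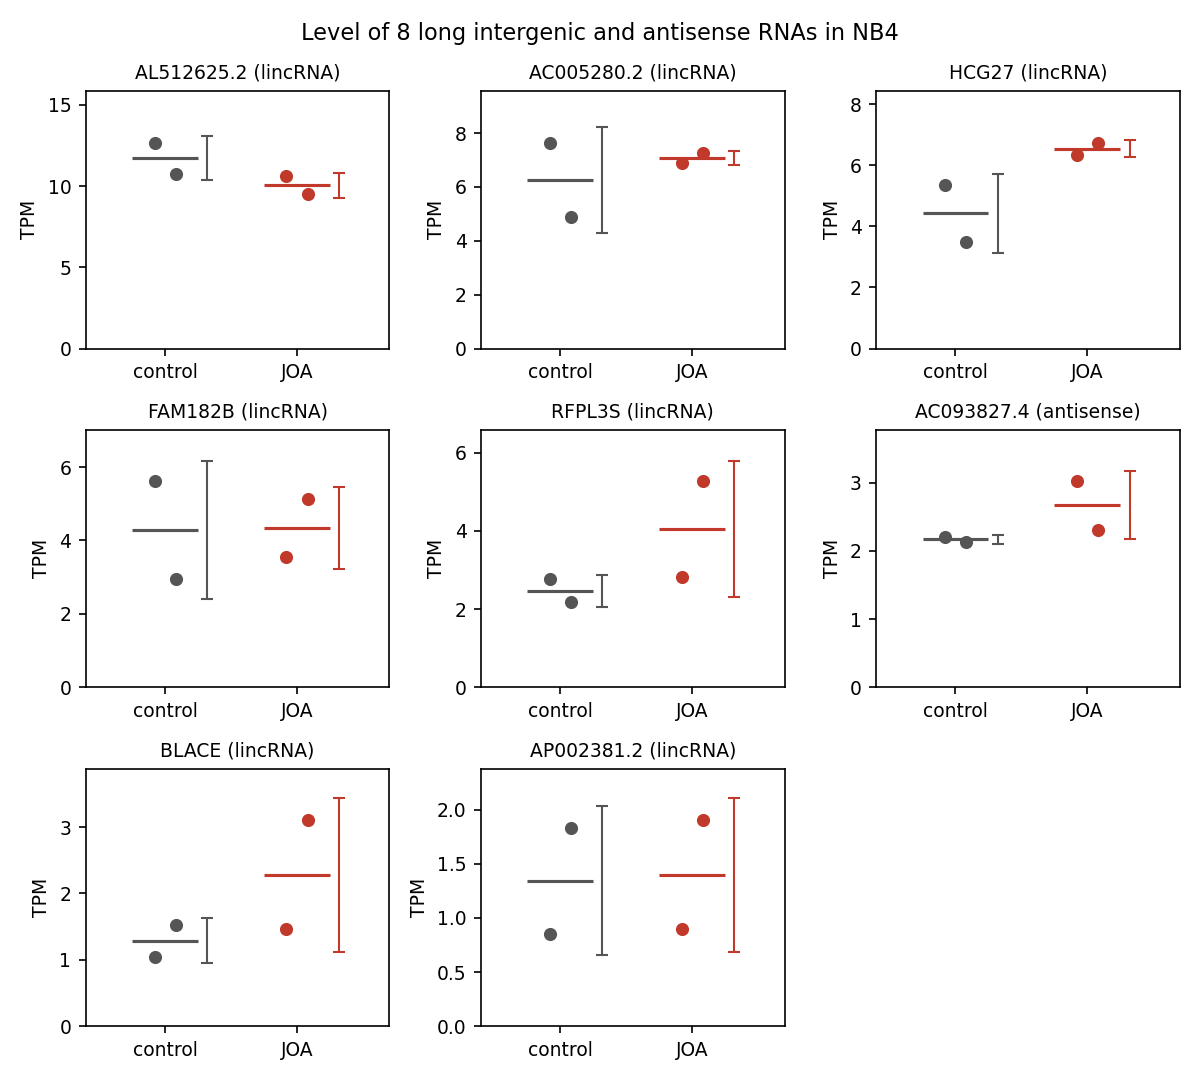
TPM of each of the 8 members in the 2 control (grey) and 2 JOA (red) NB4 libraries. Points are libraries, horizontal lines group means and bars ± SD (n = 2), and each panel has its own axis. HCG27, RFPL3S and AC093827.4 have both JOA libraries above both controls, AL512625.2 has both below, and the groups of the other 4 overlap.

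HCG27, RFPL3S and BLACE had the largest positive changes. HCG27, HLA complex group 27, is a lincRNA of the major histocompatibility complex (chromosome 6, 31197760 to 31203968, plus strand). It stood at 5.35 and 3.51 TPM in the controls and 6.35 and 6.75 TPM in the JOA libraries, so the groups did not overlap but the controls differed from each other by more than the gap to JOA. The change was 0.50 on the log2 scale (SE 0.22, 95% interval -0.02 to 1.02), with an unadjusted p of 0.0591 and a limma adjusted p of 0.485. Its nearest coding gene, POU5F1, a pluripotency factor 17029 bases away, stayed under 1 TPM in every library and was not tested.

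The value of HCG27 is spread over 3 of its 4 listed transcripts. ENST00000383331, the long form that starts at the printed promoter, stood at 1.30 and 1.31 TPM in the controls and 2.14 and 2.04 TPM in the JOA libraries. It is the transcript of the 3 whose groups do not overlap. The share of all transcripts with such a gap was not counted, and over all genes tested it was 43.5%, so this is not a result about the transcript. ENST00000415276 stood at 1.99 and 1.48 TPM in the controls and 0.995 and 2.77 TPM with JOA, and ENST00000414008 at 2.05 and 0.711 TPM and then 3.21 and 1.95 TPM, so both overlap between groups. The split between the first 2 is uncertain, since 94.2% of the windows of ENST00000415276 occur in other HCG27 transcripts. In ENST00000414008, 55.4% of the windows occur in AL662844.3, a lincRNA on the opposite strand with no row in the NB4 table. Whether the counting used strand is not given in the sources used here.

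RFPL3S, the antisense partner of RFPL3 by name (typed lincRNA, chromosome 22, 32359906 to 32382052, minus strand), stood at 2.76 and 2.18 TPM in the controls and 2.82 and 5.27 TPM in the JOA libraries. JOA 1 was close to control 1, and JOA 2 alone stood high. The change was 0.50 (SE 0.28, limma adjusted p = 0.569). Without JOA 2 it was 0.14, and without JOA 1 it was 0.86 (limma adjusted p = 0.539). Much of the difference between the JOA libraries lay in the short transcript ENST00000461833, whose unique start is printed above. It was listed at 0 in both controls, at 0.0725 TPM in JOA 1 and at 2.12 TPM in JOA 2, where it held 40.2% of the gene value. The split between the RFPL3S transcripts is uncertain, since 79.6% of the windows of ENST00000461833 occur in other RFPL3S transcripts. RFPL3, on the opposite strand, holds 49.5% of its windows. RFPL3 itself, a coding gene whose exons cover 588 bases of RFPL3S exons on the other strand, stood at 0.187 TPM or less in all 4 libraries.

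BLACE, named for its expression in B-cell acute lymphoblastic leukaemia (chromosome 7, 155356985 to 155367934, minus strand), stood at 1.05 and 1.53 TPM in the controls and 1.46 and 3.10 TPM with JOA. As in RFPL3S, JOA 2 alone was high, and JOA 1 lay within the controls. The change was 0.48 (SE 0.31, limma adjusted p = 0.611). Without JOA 2 it was 0.11, and without JOA 1 it was 0.85 (limma adjusted p = 0.555). The spliced transcript ENST00000378120 stood at 0.873 and 0.855 TPM in the controls and 1.25 and 1.13 TPM with JOA. Both JOA libraries lay above both controls, but the share of all transcripts that do so was not counted. The single-exon transcript ENST00000616210 stood at 0.173, 0.672, 0.206 and 1.97 TPM in control 1, control 2, JOA 1 and JOA 2. All of its windows (100%) lie in the spliced form too, so the split between them is uncertain. The nearest coding gene, INSIG1, which holds sterol regulatory proteins in the endoplasmic reticulum, lies 46750 bases away on the other strand and stood at 97.4 and 153 TPM in the controls and 70.8 and 62.6 TPM with JOA (log2 change -0.86, limma adjusted p = 0.245).

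**Figure D2:**
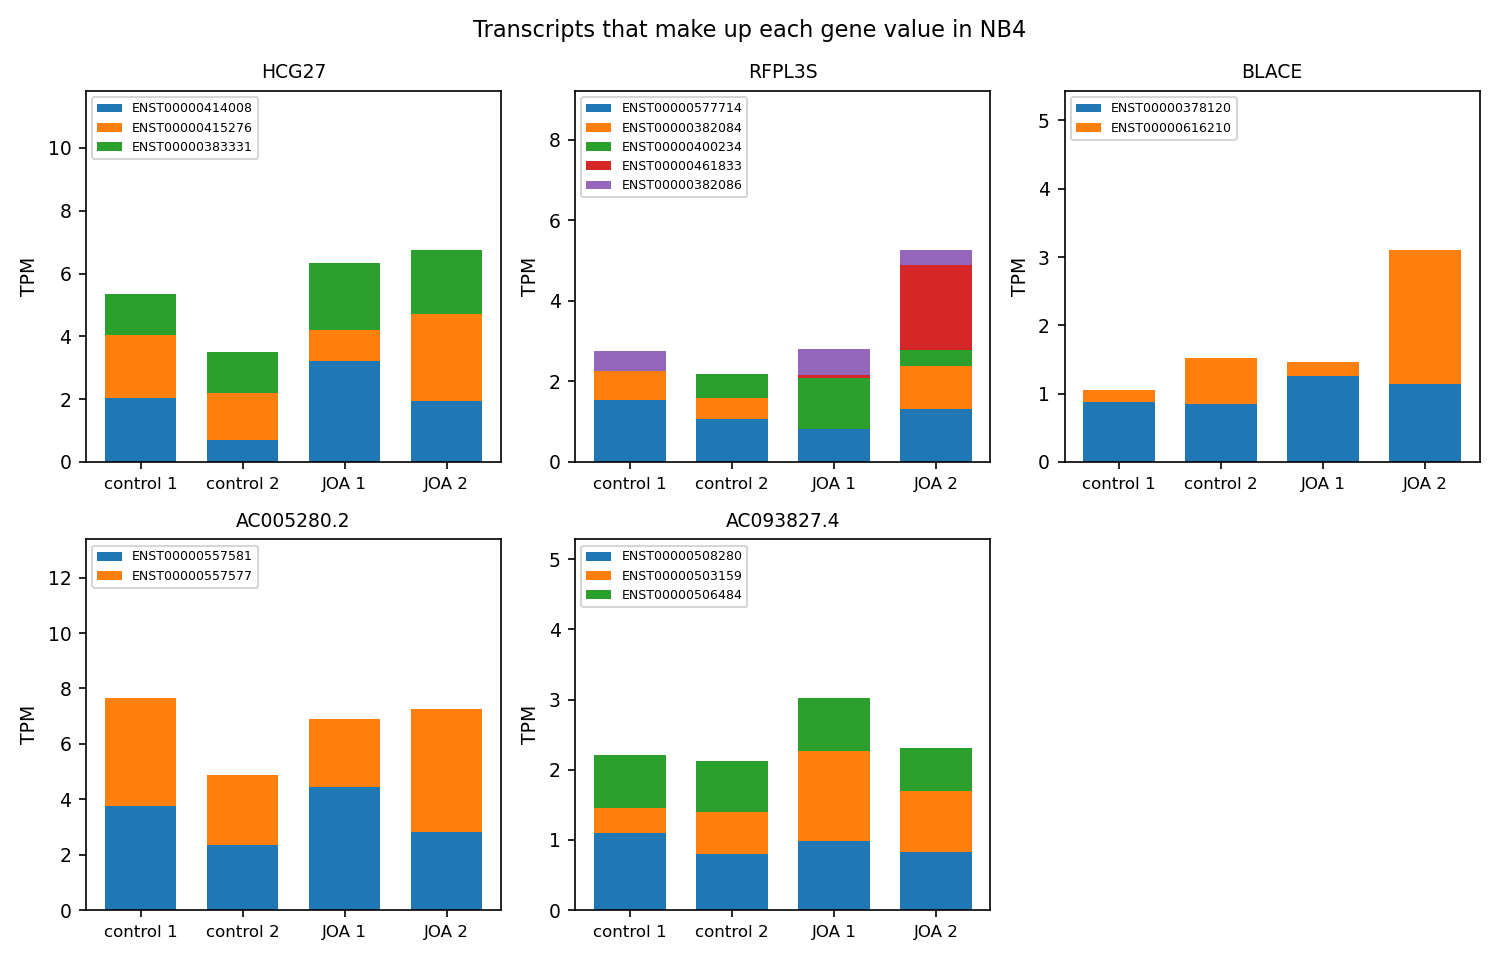
TPM of each listed transcript above 0, stacked to the gene value, in the 4 NB4 libraries for 5 members; each panel has its own axis. The block of ENST00000461833 in RFPL3S and of ENST00000616210 in BLACE is largest in JOA 2, at 2.12 and 1.97 TPM.

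A negative change was seen in AL512625.2 alone of the 8. AL512625.2 (lincRNA, chromosome 9, 62837139 to 62838302, minus strand) is a single-exon gene of 1164 bases and the most abundant member, with a mean of 10.9 TPM. It stood at 12.7 and 10.8 TPM in the controls and 10.6 and 9.50 TPM with JOA. Both JOA libraries were below both controls, but control 2 and JOA 1 were nearly level. The change was -0.20 (SE 0.17, limma adjusted p = 0.688). The nearest coding gene, CNTNAP3C, is 1384109 bases away. Of its windows, 67.2% occur in AL845472.2, another gene of chromosome 9 with no row in the table, and 1.97% in genes that the table lists. Reads from the copy could therefore count here, and its level is uncertain.

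The other 4 members had changes of 0.03 to 0.20. The annotated body of AC005280.2 (lincRNA, chromosome 14, 73458850 to 73466167, minus strand) lies 233 bases upstream of NUMB, an adaptor protein that restrains Notch signalling, on the same strand. The listed transcripts that carry its value end farther from NUMB, at 73460935 and 73462246. AC005280.2 stood at 7.65 and 4.87 TPM in the controls and 6.90 and 7.27 TPM with JOA, with control 2 alone low (log2 change 0.18, SE 0.23, limma adjusted p = 0.789). NUMB stood at 38.8 and 37.0 TPM in the controls and 42.3 and 44.3 TPM with JOA (log2 change 0.19, limma adjusted p = 0.595). A second noncoding gene, AC005280.3, shares 594 exon bases with AC005280.2 on the same strand. Its transcript ENST00000553415 stood at 3.89, 2.17, 2.14 and 3.65 TPM in control 1, control 2, JOA 1 and JOA 2, next to 3.89, 2.51, 2.44 and 4.44 TPM for the member's ENST00000557577, which has 43.7% of its windows in that gene. These 2 transcripts thus went up and down together over the libraries, and their shared reads cannot be told apart. The member's other listed transcript, ENST00000557581, did not follow them, at 3.76, 2.35, 4.45 and 2.83 TPM in the same order. Yet 48.4% of its windows occur in AC005280.3. In AC005280.1, on the opposite strand with no row in the NB4 table, 51.3% of them occur. Some windows lie in both genes, since 67.6% of the windows of ENST00000557581 occur in other genes in all.

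FAM182B (lincRNA, chromosome 20, 25763466 to 25868225, minus strand) has a near copy, FAM182A, with no row in the table. It stood at 5.61 and 2.95 TPM in the controls and 3.55 and 5.12 TPM with JOA, so that each group had 1 high and 1 low library (log2 change 0.05, SE 0.29, limma adjusted p = 0.971). Its transcript ENST00000424021, part of which is printed above, held 96.7% of the mean and shared 5.58% of its windows with other genes. The forms that share most with FAM182A, such as ENST00000584356 with 63.6% of its windows, stood at 0.306 TPM or less.

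AC093827.4 (antisense, chromosome 4, 86924630 to 86936202, minus strand) overlaps the first part of AFF1, an elongation factor gene that is a fusion partner of KMT2A in leukaemia, over 1201 bases but with no exon in common. It stood at 2.21 and 2.12 TPM in the controls and 3.02 and 2.31 TPM with JOA (log2 change 0.20, SE 0.23, limma adjusted p = 0.769). Both JOA libraries were above both controls, which were close together. The 2-exon transcript ENST00000503159 stood at 0.352 and 0.605 TPM in the controls and 1.28 and 0.864 TPM with JOA. In the other AC093827.4 transcripts above 0 the groups overlapped. How often groups do not overlap over all transcripts was not counted. The split is uncertain, since 31.9% of the windows of ENST00000503159 occur in other AC093827.4 transcripts and 27.3% in AC093827.5. AFF1 stood at 20.7 and 15.7 TPM in the controls and 17.7 and 18.2 TPM with JOA, and its log2 change was -0.003 (limma adjusted p = 0.996). AC093827.5, a coding gene on the same strand that shares 592 exon bases, stayed at 0.424 TPM or less.

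AP002381.2 (lincRNA, chromosome 11, 72793624 to 72814054, minus strand) starts 254 bases from the GENCODE start of ATG16L2, an autophagy-related gene on the other strand. It stood at 0.856 and 1.83 TPM in the controls and 0.894 and 1.90 TPM with JOA, the same low and high pair in each group (log2 change 0.03, SE 0.33, limma adjusted p = 0.982). ATG16L2, whose promoter is printed above, stood at 78.0 and 60.8 TPM in the controls and 98.8 and 88.6 TPM with JOA (log2 change 0.44, SE 0.14, limma adjusted p = 0.363), and was 59.5 times as high as the member. STARD10, a lipid transfer protein gene at the other end, shares 58 exon bases and stood at 7.39 and 3.96 TPM in the controls and 7.25 and 8.37 TPM with JOA (limma adjusted p = 0.583). No test compared the changes of a member and its neighbour.

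**Figure D3:**
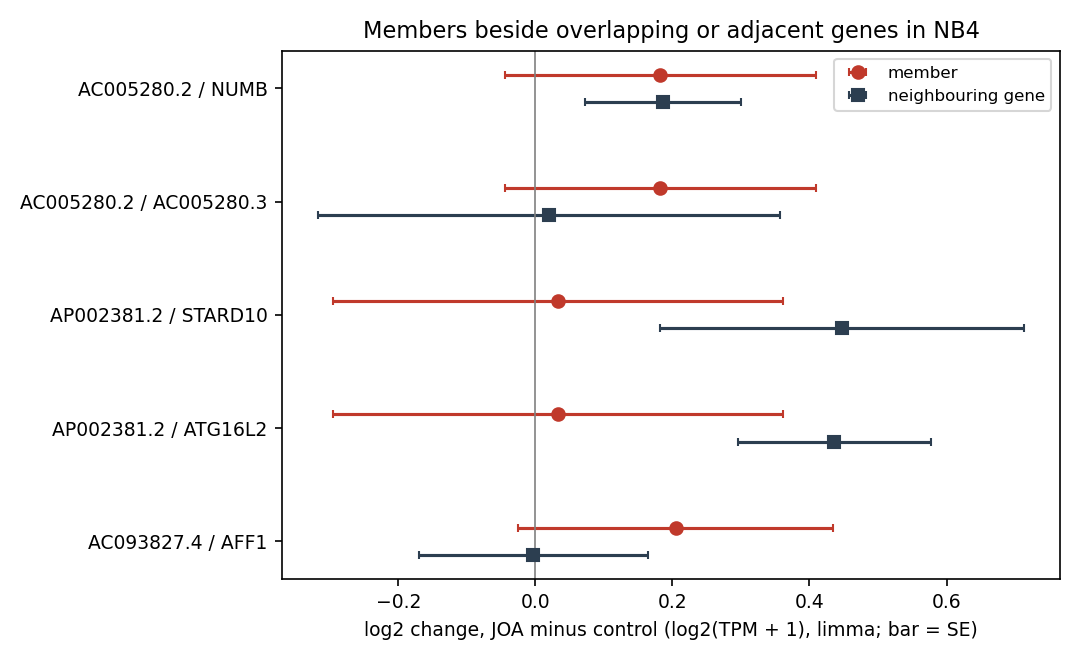
Log2 change, JOA minus control, on log2(TPM + 1) with its SE, for 3 members (red circles) and the tested genes that overlap or adjoin them (dark squares). AC093827.5, which did not pass the filter, is not shown. Members and neighbours lie between -0.003 for AFF1 and 0.45 for STARD10, and none passed the test.

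In 6 of the 8 members replicates varied more than the median gene in the level range of the members. No member was set against genes of its own level alone. The SD within groups on the log2(TPM + 1) scale had a median of 0.33 over the 8, with a range of 0.13 for AL512625.2 to 0.43 for AP002381.2. AL512625.2 and AC093827.4 (0.14) lay below the median gene of that range. Over the 4293 genes with means in the members' range, 1.37 to 10.9 TPM, the median was 0.19. Because TPM keeps no depth, how many reads stand behind these values is unknown. The table lists 23 of the 33 annotated transcripts of the members, and 14 of these were above 0 in every library, 7 were at 0 in 1 to 3 libraries and 2 in all. A median level of 3.78 TPM also set the members below the protein coding genes with a mean of 1 or more, whose median was 20.3 TPM.

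**Figure D4:**
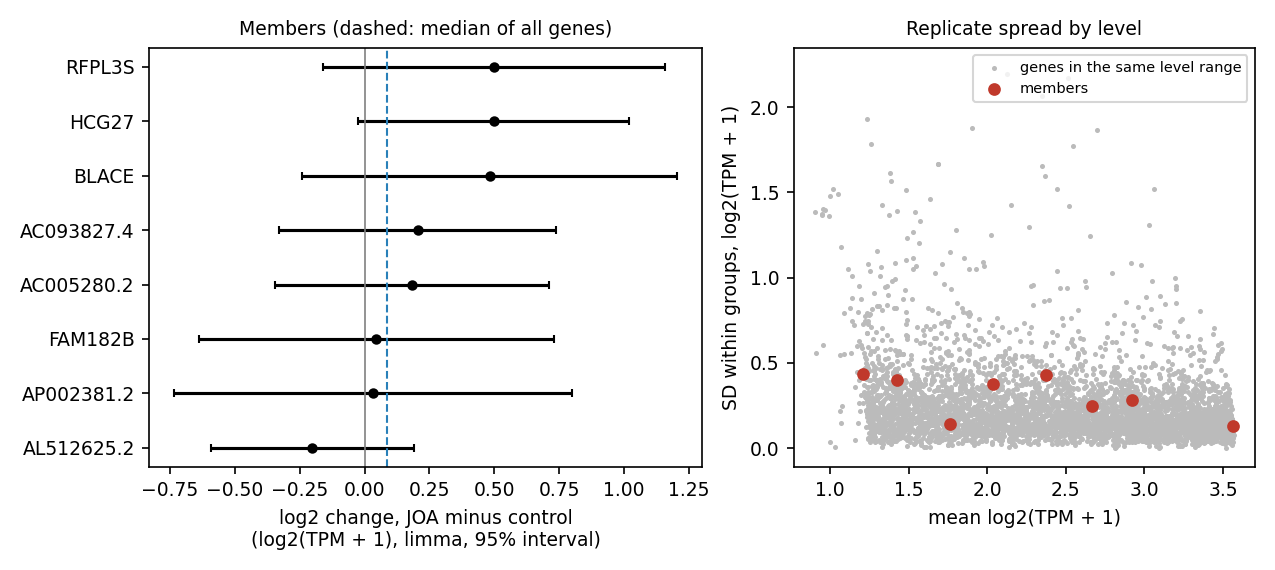
Left, log2 change of each member with its 95% interval from limma; the dashed line is the median of all 12949 genes, 0.08. Right, SD within groups against mean level, both on log2(TPM + 1), for the members (red) and the 4293 genes in the same range (grey). Every interval holds 0, and 6 of the 8 members have an SD above the 0.19 median of the grey points.

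The members have little in common in position. They lie on 8 different chromosomes, 7 of them on the minus strand, and 3 have an opposite-strand coding partner, 2 by overlap and 1 head to head. Exons of 5 members overlap those of another gene, a coding gene in 3 cases, and AL512625.2, FAM182B and BLACE are free of such overlap. Together the 8 held 0.00340 ± 0.000595% of TPM in controls and 0.00384 ± 0.000399% with JOA (n = 2 each, exact 2-sided permutation p = 0.667, where 2 against 2 cannot go below 0.333).

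Kasumi-1, a leukaemia line with the RUNX1-RUNX1T1 fusion, had 3 control and 3 JOA libraries, in a table of FPKM normalised separately. Records of 3 members were found there, 1 row each, and all stayed under 1 FPKM in every library. BLACE stood at 0.428, 0.651 and 0.296 FPKM in the controls and 0.147, 0.336 and 0.147 FPKM with JOA, and HCG27 at 0.555, 0.441 and 0.233 and then 0.418, 0.501 and 0.418 FPKM. RFPL3S stayed at 0.101 FPKM or less. The groups overlapped in all 3, and no test was made because the design asked for at least 5 members.

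The libraries also differed in other measures. All 7 promyelocyte and myeloid markers reached 1 TPM, with a summed level of 8650 to 8796 TPM in controls and 5086 to 6473 TPM with JOA, while the neutrophil elastase gene ELANE was at 1.59 TPM or less. Most of that sum is MPO, the myeloperoxidase gene, at 7983 and 7693 TPM in the controls and 5886 and 4679 TPM with JOA. Not all of the list lay lower with JOA: CD33 stood at 58.4 and 49.8 TPM in the controls and 72.2 and 75.4 TPM with JOA, and the groups overlapped in CEBPE, at 88.5 and 81.6 and then 99.5 and 77.9 TPM. Of T cell, B cell, erythroid, and epithelial and fibroblast markers, 2 of 4, 2 of 3 listed, 0 of 3 and 1 of 4 reached 1 TPM (the B cell marker MS4A1 has no row in the table used here), with CD3E, PAX5, COL1A1 and HBB below it. Summed T cell markers, mostly CD3D, stood at 30.5 TPM or less in controls and 33.4 to 49.1 TPM with JOA. CD8A lay the other way, at 2.84 and 3.04 TPM in the controls and 1.5 and 1.7 TPM with JOA. Summed epithelial and fibroblast markers, mostly EPCAM, at 10.6 to 15.4 and 14.6 to 16.4 TPM. Summed B cell markers stood at 6.06 to 6.09 and 6.27 to 7.22 TPM, and erythroid markers at 0.583 TPM or less. Mitochondrially encoded transcripts held 14.6 and 16.4% of TPM in the controls and 11.2 and 13.1% with JOA. The part of these shifts in the members' values was not tested.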

How the data were processed

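RNA of 4 NB4 and 6 Kasumi-1 libraries was sequenced. Tools listed in the submitters' processing notes are HISAT2, Cufflinks, HTSeq and Trimmomatic, with the build hg38 and no versions or roles. The authors made the NB4 table of 121005 transcripts with values scaled to a fixed library total, read here as TPM as deposited: it is named for FPKM, yet its columns sum to 999679 to 999758. TPM keeps no depth. The authors normalised the Kasumi-1 table as FPKM per sequence record before they deposited it, per the file's name.

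Of the NB4 transcripts 93.9% matched GENCODE release 29 and were summed to genes; the unmatched ones held 2.91 to 3.18% of TPM. The gene fit used limma 3.58.1 (R 4.3.3, with Python 3.11.15) with a variance trend on log2(TPM + 1), for genes at 1 TPM or more in at least 2 libraries, with Benjamini-Hochberg adjustment. The fit was tested on simulated data, with changed genes drawn only from levels above those of most members. It therefore does not show how well a change in those members would be found. The members, the gene lists and the tests were chosen with earlier results of these data known. By the naming rule, any called member, the largest non-overlapping changes, the most abundant members and their partner genes are named; all 8 members described are named. The other gene that met the rule is not reported here and is in no count, median or sum over the members. Nearest coding genes, overlapping noncoding genes and single transcripts were added after the values were seen. Alternatives are in the closing section.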

Additional observations from a re-analysis of the deposited data

How the results depend on the processing

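Across 9 alternatives (a pseudocount of 0.1, no filter, median-ratio scaling, a replicate block, no variance trend, and leaving out each library), 0 of the 72 member values passed limma's adjusted p under 0.05, and 65 kept their direction. FAM182B turned negative with median-ratio scaling (-0.031), without control 2 (-0.33) and without JOA 2 (-0.17), AP002381.2 with median-ratio scaling (-0.027), without control 1 (-0.27) and without JOA 2 (-0.28), and AC005280.2 without control 2 (-0.10). The cause was not tested. When 1 library was left out these 3 ran from -0.33 to 0.42, -0.28 to 0.34 and -0.10 to 0.46. HCG27 lay between 0.25 and 0.74, with a lowest adjusted p of 0.229. The median change of the members ran from 0.13 to 0.37 when 1 library was left out, the latter without control 1. It was 0.12 with median-ratio scaling, 0.24 with a pseudocount of 0.1, and 0.046 over the 3 members with no exon overlap. The share of TPM held by the members, JOA minus control, was 4.45e-04 percentage points and ran from 2.35e-05 without control 2 to 8.66e-04 without control 1.

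With all 4 libraries kept, the count of members at an unadjusted p under 0.05 in limma was 0 in the main fit. It was 1 with the replicate block, 1 without a variance trend, and 0 in the other alternatives. It also rose without control 1 and without JOA 1, but a group then holds a lone library, so those counts are not given. The share of all genes at that cutoff is not given for these alternatives, so the counts are not a result about the members. The count of all genes called was 1, and 0 with a pseudocount of 0.1, with no filter or with median-ratio scaling, 5 without a variance trend, and 1 to 6 when 1 library was left out, with 6 without JOA 1 and 2 without control 2. Where 1 library was left out, the lone library of its group is assumed to vary like the others. With the replicate block 150 genes were called, but the deviations of same-numbered libraries correlated at only 0.0675, so the numbers were not taken as pairs. The Kasumi-1 alternatives were not run, since only 3 members described have a record there.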
